A study of Mus musculus with 3 samples.

Results

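The genes encoding Forkhead, SOX and T-box transcription factors were examined in MEL cells, an immortalized erythroleukemia line of the mouse that resembles early red cell precursors. Members were the protein-coding genes of the GENCODE M21 basic annotation (build mm10) with a symbol made of Fox, a letter and a number, of Sox and a number, or of Tbx and a number. Sox6 was left out by that rule. It found 75 of 21851 protein-coding genes: 44 Forkhead, 18 SOX and 13 T-box genes. The rule uses gene names and no measured value.

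Accessible chromatin had been mapped by DNase-seq, in which DNase I cuts open DNA and the cut ends are sequenced. All libraries came from MEL cells under 1 condition, with no treatment, genotype or time named in the labels. Biological replicate 1 was 1 list of peaks called on 2 merged libraries, and biological replicate 2 was 1 list called on 1 library. The lists held 281600 and 89046 peaks of about 150 bp after exact repeats were dropped. Each peak carries a whole-number score given by the authors, which reached 150. The median score was 73 in replicate 1 and 32 in replicate 2. What the score counts and how deeply the libraries were sequenced are not given in the sources used here. Scores are therefore read within a list and are not compared between lists. With 1 list a replicate, no test between samples was possible, and differences between groups of genes are given as counts and medians beside those of all genes.

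The 3 families are large sets of DNA-binding proteins that steer cell identity. Forkhead factors bind through a winged-helix domain, and the FOXO group among them is held in the cytoplasm by AKT signalling and switches on genes of stress defence and cell cycle arrest when that signal falls. SOX factors bend DNA through an HMG box and are known for roles in stem cells, neurons, cartilage, testis and vessels. T-box factors take their name from Brachyury and act in mesoderm, heart and limb formation and in lymphocytes. A cell of a given lineage uses a few members of each family, while many of the others are tied to tissues that it never forms. Foxo3 is known to act in the late steps of red cell maturation.

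The label of the cells was checked against markers. A promoter peak here has its centre at most 1000 bp from a protein-coding transcript start. One was found for 8 of 8 erythroid markers in replicate 1 and 7 in replicate 2, where Alas2 had none. T cell markers had 2 of 5 in replicate 1 (Lck, score 92, and Cd3g, score 61) and 0 in replicate 2. None of the 4 neuron, 3 muscle, 3 epithelium or 3 pluripotency markers had one in either list.

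Sequences of 6 promoter sites are shown first, because they differ in CpG content, a known feature of broadly used mouse promoters. They are the sites of the 3 Forkhead genes with the highest replicate 2 promoter scores, of the only SOX gene with a promoter peak in both lists, and of Tbx15 and Tbx22, with a high and a low score among T-box genes. Each is the 150 bp of a replicate 2 peak on the strand of its gene, 5′ to 3′, read from the GRCm38 reference (the build of mm10), with CpG dinucleotides in capitals. The Foxo3 peak lay at chr10:42277656-42277805 on the minus strand, 976 bp upstream of the start, and held 16 CpG. The Foxo4 peak lay at chrX:101254036-101254185 on the plus strand, 417 bp upstream, with 14 CpG, and the Foxn2 peak at chr17:88440436-88440585 on the plus strand, 200 bp upstream, with 15. The strongest replicate 2 peak of Sox12 lay at chr2:152398896-152399045 on the minus strand, 908 bp upstream, with 16 CpG. Among T-box genes, Tbx15 had the highest score, at chr3:99253216-99253365 on the plus strand, 469 bp upstream of the coding start and inside an intron of a longer Tbx15 transcript, with 4 CpG. The Tbx22 peak lay in an intron, 907 bp downstream of the start, at chrX:107668796-107668945 on the plus strand, scored 16 and held 0 CpG.
Foxo3 promoter peak: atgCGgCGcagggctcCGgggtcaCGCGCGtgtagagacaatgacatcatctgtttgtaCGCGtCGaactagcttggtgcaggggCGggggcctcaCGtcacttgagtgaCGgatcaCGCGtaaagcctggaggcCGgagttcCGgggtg
Foxo4 promoter peak: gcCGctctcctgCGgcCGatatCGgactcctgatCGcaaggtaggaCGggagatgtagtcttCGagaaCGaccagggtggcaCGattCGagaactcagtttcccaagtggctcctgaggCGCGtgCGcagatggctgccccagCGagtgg
Foxn2 promoter peak: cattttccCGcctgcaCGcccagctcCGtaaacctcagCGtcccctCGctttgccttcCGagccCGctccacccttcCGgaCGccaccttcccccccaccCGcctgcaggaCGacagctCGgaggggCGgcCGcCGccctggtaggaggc
Sox12 promoter peak: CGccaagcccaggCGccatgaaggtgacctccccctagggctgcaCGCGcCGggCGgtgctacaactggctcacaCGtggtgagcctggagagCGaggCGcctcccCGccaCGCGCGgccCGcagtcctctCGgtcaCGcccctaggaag
Tbx15 promoter peak: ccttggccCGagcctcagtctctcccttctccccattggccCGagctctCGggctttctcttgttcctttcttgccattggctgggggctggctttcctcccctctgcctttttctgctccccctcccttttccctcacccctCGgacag
Tbx22 promoter peak: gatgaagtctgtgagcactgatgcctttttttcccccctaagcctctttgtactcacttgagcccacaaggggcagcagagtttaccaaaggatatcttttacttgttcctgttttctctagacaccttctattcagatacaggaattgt

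The 150 bp just upstream of Sox11, Sox3 and Sox9 are shown beside them because these SOX genes had no peak of either list in the gene or within 50 kb. They lay at chr12:27342575-27342724 on the minus strand, chrX:60893431-60893580 on the minus strand and chr11:112782074-112782223 on the plus strand. They held 16, 11 and 7 CpG in the same order. The Sox11 stretch thus had as many CpG as the Foxo3 and Sox12 peaks. Those of Sox3 and Sox9 had fewer than the Forkhead and Sox12 peaks and more than the T-box peaks. Among these few chosen sequences the count did not separate those with a peak from those without. Their distances from a start also differed.
Sox11 without a peak: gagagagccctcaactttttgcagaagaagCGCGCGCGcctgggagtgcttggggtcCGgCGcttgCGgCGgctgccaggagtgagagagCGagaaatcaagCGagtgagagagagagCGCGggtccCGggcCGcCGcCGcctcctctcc
Sox3 without a peak: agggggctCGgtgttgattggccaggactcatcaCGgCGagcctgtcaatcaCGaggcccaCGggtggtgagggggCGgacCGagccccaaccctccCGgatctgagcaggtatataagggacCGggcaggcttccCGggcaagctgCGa
Sox9 without a peak: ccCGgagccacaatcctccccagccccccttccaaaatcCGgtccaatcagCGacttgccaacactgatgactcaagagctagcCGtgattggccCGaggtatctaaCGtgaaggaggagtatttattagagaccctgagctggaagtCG

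Promoter peaks were less frequent among these genes than among protein-coding genes in general. Of the 75 members, 27 (36.0%) had one in replicate 1 and 22 (29.3%) in replicate 2, against 58.3% and 49.4% of all protein-coding genes. All 22 were also among the 27, so 22 members (29.3%) had a promoter peak in both lists, against 49.4% of all genes, 5 had one in replicate 1 alone, and 48 had none. The families differed in these counts. Forkhead genes had 20 of 44 (45.5%) in replicate 1 and 18 (40.9%) in replicate 2, T-box genes 5 of 13 (38.5%) and 3 (23.1%), and SOX genes 2 of 18 (11.1%) and 1 (5.56%). No test of these differences was made, since genes are not replicates.

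The strongest promoter peak lay upstream of the nearest start of its gene in 24 of 27 members in replicate 1 and in 19 of 22 in replicate 2. Its median distance to that start was 438 bp in replicate 1. In 19 of the 22 members with a promoter peak in both lists, the strongest peaks of the lists overlapped. Foxj1, Foxj3 and Foxo4 were the exceptions, with different neighbouring peaks ranked first. These counts are not given over all genes, so they describe the members and show no trait particular to them. At the edge of the promoter window in replicate 2, the strongest peaks just inside 1000 bp belonged to Foxo3 (976 bp), Foxn3 (941 bp), Sox12 (908 bp) and Tbx22 (907 bp), and the nearest peaks just outside belonged to Foxh1 (1003 bp, score 33), Foxd4 (1314 bp, score 20) and Tbx6 (1352 bp, score 35).

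**Figure D1:**
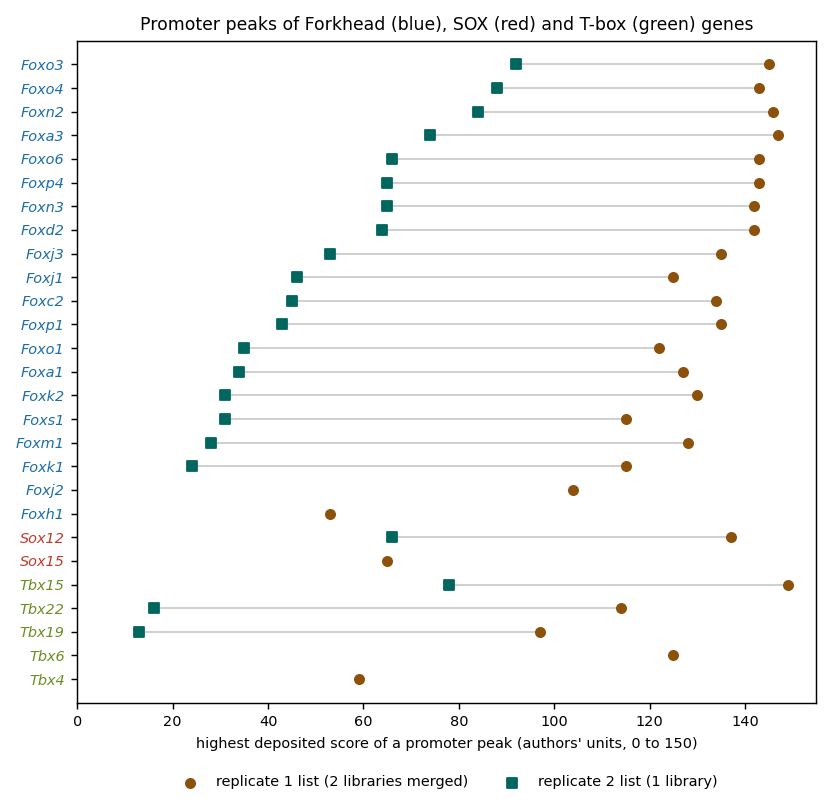
The highest deposited promoter score (horizontal axis, authors' units) is plotted for each of the 27 members with a promoter peak, as circles for the replicate 1 list and squares for the replicate 2 list, with names coloured by family. Foxo3 leads the replicate 2 list at 92, and the 5 members without a square had a peak in replicate 1 alone.

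FOXO genes had accessible promoters throughout. All 4 members of the group had a promoter peak in both lists, against 49.4% of all genes. Foxo3, the FOXO factor best known in blood cells, had a highest score of 145 in replicate 1. In replicate 2 it reached 92, higher than at 87.7% of the protein-coding genes with a promoter peak. It had 3 promoter peaks in replicate 1 and 4 in replicate 2, among them a pair centred 11 bp from the start that scored 139 and 45. Foxo4 scored 143 and 88, higher than 84.1% of promoters in replicate 2. Foxo6 scored 143 and 66 with 1 peak in each list, 662 and 642 bp upstream. Foxo1, a brake on growth under low insulin signalling, scored 122 and 35, which was higher than 12.7% of promoters in replicate 2. Over all genes with a promoter peak the median of the highest score was 139 in replicate 1 and 63 in replicate 2, so Foxo3, Foxo4 and Foxo6 stood above both medians and Foxo1 below both.

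Genes around the FOXO factors were also accessible. Of 19 listed regulators of the pathway, 19 had a promoter peak in each list. The highest replicate 2 scores belonged to the kinase gene Akt1 (150 in replicate 1 and 117 in replicate 2), to Ywhab, a 14-3-3 protein that binds phosphorylated FOXO (149 and 103), and to Xpo1, the nuclear export receptor (149 and 100). Skp2, a ubiquitin ligase subunit that targets FOXO1, scored 150 and 100. Of 20 known FOXO target genes, 18 had a promoter peak in each list, and Klf2 and Fbxo32 had none. Both gene lists, like the other gene lists used here, were drawn up with earlier results of these data known. Txnip, an inhibitor of thioredoxin, scored 150 and 123, the stress protein gene Sesn3 150 and 117, Gpx1, which removes peroxides in red cells, 148 and 102, and Gadd45a 150 and 102. Many of these genes act in most cell types, and the shares over all genes were 58.3% and 49.4%. DNase-seq does not measure whether a FOXO protein is bound there.

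Other broadly used Forkhead genes followed. Foxm1, which drives genes of the G2 and M phases, scored 128 and 28, and its 1 replicate 2 promoter peak was centred 76 bp upstream of its start but 23 bp from the start of the neighbouring gene Rhno1. All 14 of its listed partners and target genes had promoter peaks in both lists, where all genes gave 58.3% and 49.4%. That list was drawn up with earlier results of these data known. Its highest scores were those of the MuvB subunits Lin52 (150 and 112) and Lin37 (149 and 97) and of Cdc20 (147 and 80), an activator of the anaphase-promoting complex. The repressors of the FOXK group, Foxk1 and Foxk2, scored 115 and 24, and 130 and 31. Foxk1 stood higher than 4.77% of promoters in replicate 2 and Foxm1 than 7.19%. Both were thus low among the highest promoter scores of genes in that list, whose median over all peaks was 32.

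In the FOXN and FOXJ2/J3 group 4 of 6 members had a promoter peak in replicate 1 and 3 in replicate 2. Foxn2 scored 146 and 84, higher than 79.8% of promoters in replicate 2, and Foxn3, a checkpoint repressor, scored 142 and 65. The Foxj3 promoter scored 135 and 53. Foxj2 had 5 promoter peaks in replicate 1, the highest at 104, and none in replicate 2, where the nearest peak lay 4140 bp from a start with a score of 22. Foxn1, which builds thymic epithelium, and Foxn4, a factor of the retina and spinal cord, had none in either list.

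FOXP genes divided evenly. Foxp1 scored 135 and 43 and Foxp4 143 and 65. Foxp1 had 5 promoter peaks in replicate 1 and 7 in replicate 2, spread over several of its 6 starts, and the strongest lay 887 bp downstream of an internal start in each list. Foxp2, known for its role in speech circuits, and Foxp3, the master factor of regulatory T cells, had none. The nearest peaks to Foxp2 lay 20776 bp away in both lists with scores of 41 and 10. With the start of the gene record in place of coding transcript starts, Foxp3 had a promoter peak in both lists. Foxr1 and Foxr2 also had none. Counted together, the FOXO, FOXM, FOXK, FOXN with FOXJ2/J3, and FOXP groups had 13 of 17 members (76.5%) with a promoter peak in replicate 1 and 12 (70.6%) in replicate 2, and the other Forkhead genes, FOXR included, had 7 of 27 (25.9%) and 6 (22.2%). All genes gave 58.3% and 49.4%. This pooling was made after the values were seen and is a description only.

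Among the 25 developmental Forkhead genes, 7 had a promoter peak in replicate 1 and 6 in replicate 2. Foxa3, a pioneer factor of liver, had the highest scores of the group, 147 and 74, but its peaks were centred 86 and 106 bp from the start of Sympk, a divergent neighbour, and 753 and 733 bp from its own. Foxd2 scored 142 and 64, with the strongest peaks nearest to the start of the antisense gene Foxd2os, at 86 and 146 bp. Foxc2, of lymphatic vessels and kidney, scored 134 and 45, Foxj1, which switches on genes of motile cilia, 125 and 46, Foxa1 127 and 34, and Foxs1 115 and 31. Foxh1, a partner of SMAD proteins in nodal signalling, scored 53 in replicate 1 alone, and its nearest replicate 2 peak lay just outside the window.

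The other 18 developmental Forkhead genes had no promoter peak in either list. Among them were Foxb1, Foxb2, Foxc1, Foxd1, Foxd4, Foxe1, Foxe3, Foxf1, Foxf2, Foxi1, Foxl1 and Foxq1. They include factors of the gut and notochord (Foxa2), the neural crest (Foxd3) and the ovary (Foxl2).

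SOX promoters were mostly without peaks. Sox12, a group C factor found in many tissues, scored 137 and 66 and had 4 promoter peaks in replicate 1 and 3 in replicate 2. Its group partners Sox4 and Sox11 had none, and the nearest replicate 2 peaks lay 52778 and 886043 bp away. Sox15 scored 65 in replicate 1 alone, higher than 6.81% of promoters, with its nearest replicate 2 peak at 7017 bp. All other SOX genes lacked a promoter peak in both lists. These were the neural and stem cell factors of group B (Sox1, Sox2, Sox3, Sox14 and Sox21), Sox5 and Sox13 of group D, the cartilage, testis and neural crest factors of group E (Sox8, Sox9 and Sox10), the endothelial factors of group F (Sox7, Sox17 and Sox18), and Sox30.

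Of 10 listed HMG-box genes with other names, 6 had a promoter peak in replicate 1 and 5 in replicate 2, near the shares of all genes (58.3% and 49.4%). Hbp1 scored 150 and 121, Cic 150 and 109, Hmgb1 145 and 106, Hmgb2 150 and 104, and Bbx 149 and 71. Tcf7, a WNT effector of T cells, scored 74 in replicate 1 alone, and Lef1, Tcf7l1, Tcf7l2 and Sry had none.

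T-box genes gave 3 promoters found in both lists. Tbx15, a factor of skeletal development and brown fat, scored 149 and 78, higher than 92.6% of promoters in replicate 1 and 71.8% in replicate 2. It had 5 promoter peaks in replicate 1 and 3 in replicate 2, and none in either list when the start of the gene record was used alone. Tbx22, of palate development, scored 114 and 16, and Tbx19, which acts in the pituitary, 97 and 13. Tbx22 and Tbx19 ranked near the bottom of the genes' highest promoter scores in replicate 2, with 1.48% and 0.703% of promoters scoring lower. Over all peaks of that list the median score was 32. Tbx6, of the presomitic mesoderm, scored 125 in replicate 1 alone and Tbx4, of the hindlimb, 59.

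No promoter peak was found for Tbx1, Tbx2, Tbx3, Tbx5, Tbx10, Tbx18, Tbx20 or Tbx21. Tbx21 encodes T-bet of T helper cells, and Tbx5 and Tbx20 act in the heart. Of 4 listed T-box genes with other names, Tbxt was not found by that symbol in the annotation and was not counted. Among the other 3, Mga scored 139 and 56 and Tbr1 127 and 37, and Eomes had none.

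CpG number was compared next, because a CpG-rich start usually goes with a peak. CpG dinucleotides were counted up to 500 bp to either side of the 5′-most coding start, and all genes were divided by that number into 5 classes of equal size. Members were CpG-rich: their median was 75 against 43 for all genes, and 33 of 75 fell in the highest class. In that class 80.7% of all genes had a promoter peak in replicate 1 and 74.1% in replicate 2, against 15 of 33 members (45.5%) and 14 of 33 (42.4%). Members of the next class had 3 of 16 (18.8%) in each list, against 81.1% and 76.2% of all genes. The shares of members also lay below those of all genes in the second and in the third class, and above them only in the lowest class, which held 3 members.

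By family, the highest class held 22 Forkhead genes, of which 14 had a promoter peak in replicate 1 and 13 in replicate 2. It held 8 SOX genes, of which 1 had one in each list, and 3 T-box genes with none. Foxo1, Foxo3 and Foxo6 lay in the highest class and Foxo4 in the next. Of all genes there, 80.7% and 81.1% had a promoter peak in replicate 1, and 74.1% and 76.2% in replicate 2. Members with a promoter peak in both lists had a median of 97.5 CpG and those without any 69. The ranges overlapped, from 5 to 149 and from 8 to 112. The 3 T-box genes with a peak in both lists had 71 (Tbx15), 18 (Tbx19) and 5 (Tbx22). CpG-rich starts without a peak included Foxf1 and Sox30 with 112 each, Foxf2 with 104 and Sox11 with 100. Of the 32-bp words within 1000 bp of a member's 5′-most coding start, a median of 99.9% occurred once in the reference. The lowest share, 85.6%, was at Foxn3, whose promoter peaks lay at its other starts. In a gene with several starts, the CpG number and this share thus need not be those of the start with the peak.

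**Figure D2:**
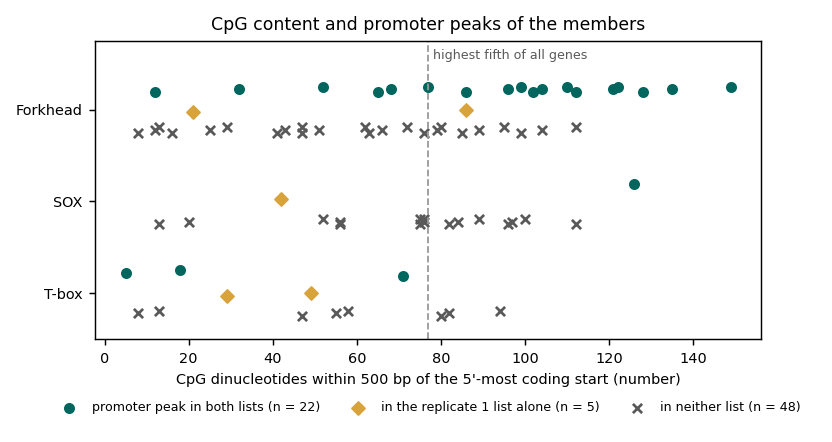
Each symbol is 1 of the 75 members, placed by its number of CpG within 500 bp of the start (horizontal axis) and its family (vertical axis), with the shape giving its promoter peak status. In SOX genes only Sox12, at 126 CpG, had a promoter peak in both lists, while 7 SOX genes without one lay in the highest class.

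**Figure D3:**
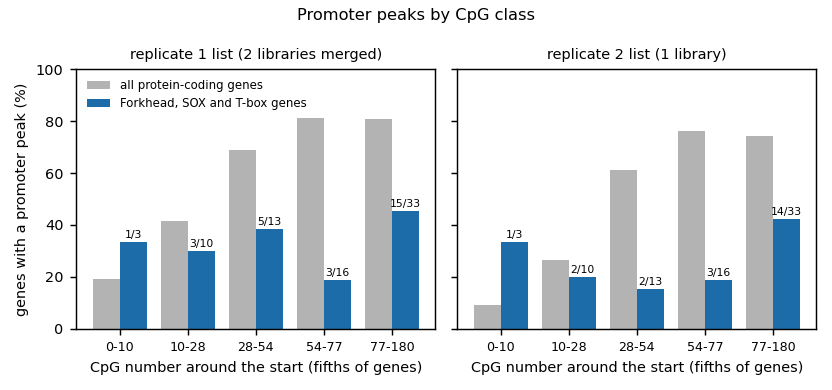
Bars give the percentage of genes with a promoter peak in each of 5 CpG classes, for all protein-coding genes (grey) and for the members (blue, with counts), in the replicate 1 list (left) and the replicate 2 list (right); genes with a tied number at a class border are divided between classes. In the highest class the members stand at 45.5% and 42.4%, and all genes at 80.7% and 74.1%.

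The surroundings of the genes were counted over the gene and 50 kb to either side. The median over the members was 22 peaks in replicate 1 and 7 in replicate 2, against 28 and 9 for all protein-coding genes. Per 100 kb of window the medians were 19.1 and 6.12, against 20.6 and 6.78. Forkhead genes had medians of 25 and 8, T-box genes 22 and 7, and SOX genes 16 and 3. When the longer list was cut to its best-scoring peaks to match the shorter one, the replicate 1 median of members was 10, above the 9 of all genes, so the order in that list turned with list length. Members with a promoter peak in both lists had window medians of 39.5 and 12.5, and those without any 9.5 and 3. Over all genes the medians with and without a promoter peak were 36 and 10 in replicate 1 and 13 and 4 in replicate 2.

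Windows of the members ranged from 0 to 118 peaks in replicate 1 and from 0 to 47 in replicate 2. Foxp1 had the most, with 118 and 47, nearly all inside its 597 kb gene body (111 and 44). Foxn3 had 102 and 29 over a gene of 374 kb. The windows of Foxn2 (47 and 29), Tbx15 (42 and 28) and Foxo3 (55 and 19) were shorter, and Foxn2 had the highest density of these 5 genes in replicate 2, with 19.4 peaks per 100 kb. Long genes have longer windows, so counts and densities rank the genes differently.

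At the other end, 4 members had no peak of either list in their window: Foxa2, Sox3, Sox9 and Sox11. They were 5.33% of the members, against 6.01% of all protein-coding genes, and 3 of them were among the 18 SOX genes (16.7%). No replicate 2 peak lay in the windows of 12 members, against 13.7% of all genes. Those 12 comprised 8 of 18 SOX genes (44.4%), 2 Forkhead genes (Foxa2 and Foxb1) and 2 T-box genes (Tbx3 and Tbx18). The nearest replicate 1 and replicate 2 peaks lay 235777 and 886043 bp from the start of Sox11, 191213 and 390387 bp from Sox9, 153481 and 153441 bp from Sox3, and 63362 and 608182 bp from Foxa2. In the gene and 1 Mb to either side Sox11 had 15 and 2 peaks, the fewest of all members in each list. The promoters of these 4 genes were 96.3 to 100% unique in 32-bp words.

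**Figure D4:**
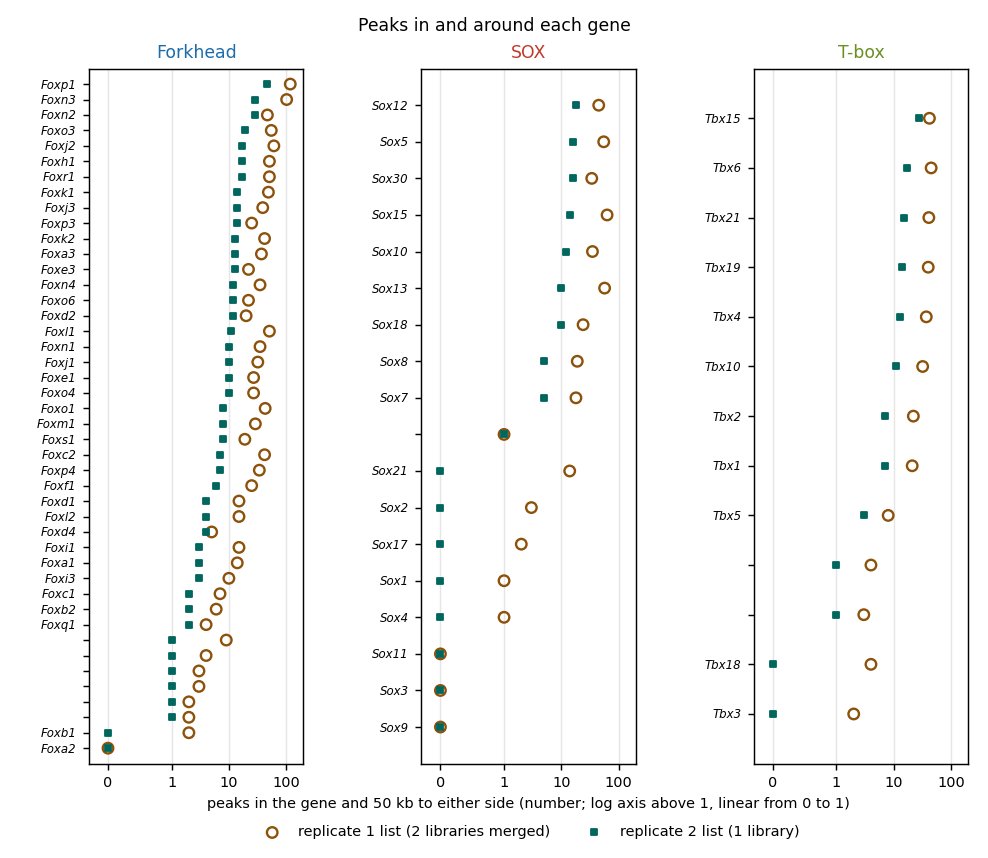
Points give the number of peaks in each gene and 50 kb to either side (horizontal axis, logarithmic above 1), as open circles for the replicate 1 list and squares for the replicate 2 list, with 1 panel a family and genes ordered by the replicate 2 number; names are given where that number is not 1. In the SOX panel 8 genes lie at 0 in replicate 2, and Foxp1 leads the Forkhead panel with 118 and 47.

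Members without a promoter peak differed in how far the nearest peak lay. For the 48 of them the distance to a start had a median of 6.72 kb in replicate 1 and 19.2 kb in replicate 2. It was over 10 kb in 19 and in 31 of them, and no count over all genes is given beside this. In replicate 2 the median was 12.6 kb for the 24 Forkhead genes, 40.7 kb for the 16 SOX genes and 35.9 kb for the 8 T-box genes. In replicate 1, whose list is longer, these medians were 6.57, 5.39 and 10.9 kb, so SOX genes had the largest median in replicate 2 and the smallest in replicate 1.

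Some genes without a promoter peak had many peaks in their window. Sox5, which acts in cartilage and is a partner of Sox6, had 55 and 16, of which 43 and 11 lay in its 954 kb body. Over that long window this came to 5.22 and 1.52 peaks per 100 kb, below the medians of all genes (20.6 and 6.78). Its strongest replicate 2 peaks scored 73 and 59 in exons, 114 kb from the nearest coding start, and 54 in an intron, 105 kb from it. Densities above those medians were found at Sox13 (57 and 10 peaks, or 40.1 and 7.04 per 100 kb), Sox10 (35 and 12, or 31.7 and 10.9) and Sox30 (34 and 16, or 24.7 and 11.6). Foxr1 had 51 and 17, or 47.5 and 15.8 per 100 kb, with a peak of 145 and 74 in its own exon, 5.14 kb from the start in replicate 2. Windows also hold peaks of neighbours: the highest replicate 2 score in the Sox15 window, 115, lay 279 bp from the start of Fxr2, and that of Tbx10, 109, lay 5 bp from the start of Ndufv1.

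Strong peaks away from any coding start were found near some members. Peaks over 1000 bp from every coding start were taken if closer to the member than to any other coding gene. In replicate 2, 49 of the members had at least 1, and no count over all genes is given beside it. All 49 of the strongest were overlapped by a replicate 1 peak, as were 94.7% of all replicate 2 peaks. The highest scores belonged to an intergenic site 8.86 kb from Foxj2 (150 in replicate 1 and 109 in replicate 2), an intron of Tbx15 at 11.2 kb (149 and 103), an intron of Gm20388 at 42.9 kb from Foxl1 (147 and 96), an intron of Foxn2 at 1.36 kb (147 and 85), and an intron of Foxo3 at 32 kb (146 and 82). Foxj2 thus had the highest of these sites while its own promoter had no replicate 2 peak. Nearness does not show which gene such a site serves.

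**Figure D5:**
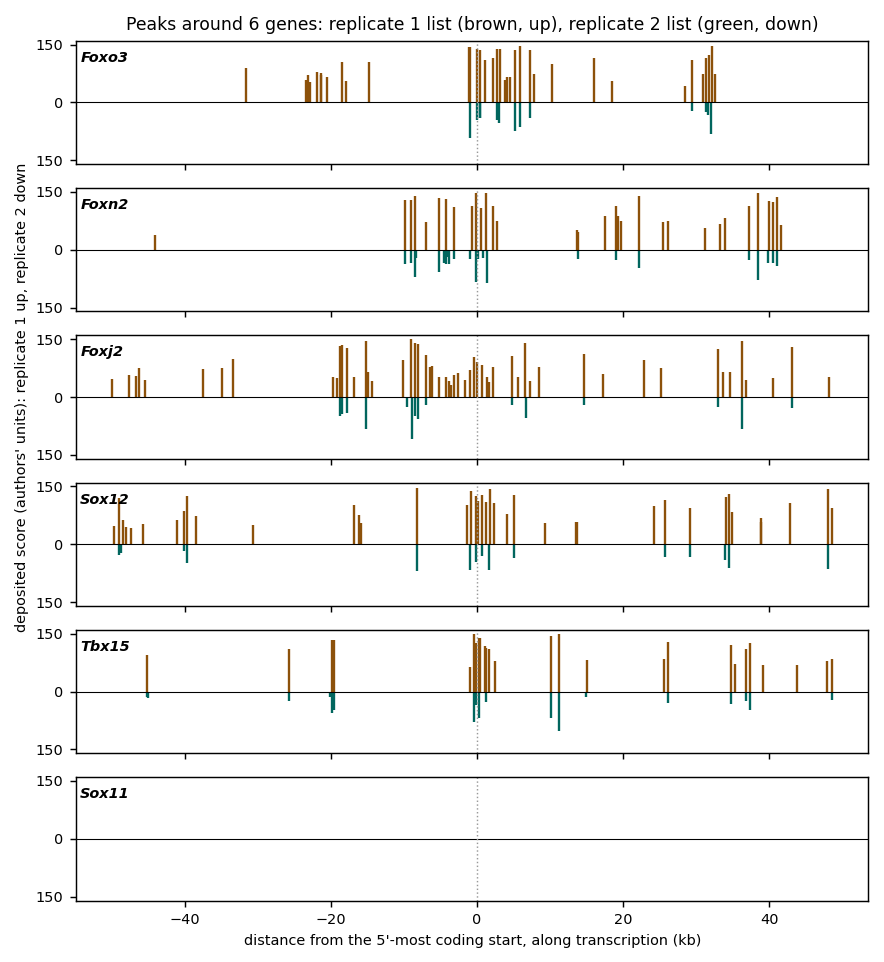
Vertical lines mark peaks by their distance from the 5′-most coding start along transcription (horizontal axis, kb) and their deposited score (vertical axis, authors' units), with the replicate 1 list drawn upward and the replicate 2 list downward, for 6 genes. Foxj2 has replicate 1 lines at its start and its tallest replicate 2 line, 109, at 8.86 kb upstream, and Sox11 has no line within 50 kb.

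The intronic Foxo3 site is printed because it held a GATA motif, the site of the main factors of red cell development, and the Tbx15 site as the intronic peak with the highest replicate 2 score and none of the motifs searched. Both are on the strand of the gene in GRCm38, at chr10:42244596-42244745 on the minus strand and chr3:99264856-99265005 on the plus strand, with matches in capitals.
Foxo3 intron peak: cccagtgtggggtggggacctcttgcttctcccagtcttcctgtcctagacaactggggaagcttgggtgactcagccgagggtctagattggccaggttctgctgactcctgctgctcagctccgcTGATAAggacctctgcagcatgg
Tbx15 intron peak: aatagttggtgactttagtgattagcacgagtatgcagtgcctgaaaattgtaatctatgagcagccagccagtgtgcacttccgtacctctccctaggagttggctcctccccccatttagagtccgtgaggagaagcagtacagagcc

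Motifs were searched on both strands in the 150 bp around each peak centre. GATA sites were taken as AGATAA or the form AGATAG, and likewise TGATAA or the form TGATAG. Forkhead sites were TGTTTAC or the form TGTTTAT, SOX sites AACAATG or the form AACAATA, and the T-box site was AGGTGTGA. An E-box was CAGCTG, an ETS site CCGGAAGT, a CACC box CCACACCC, a CRE site TGACGTCA and a YY1 site AAGATGGCG. No form contains another. None of the 6 promoter peaks printed above held any of them. GATA was found in 10 of 73 member promoter peaks in replicate 1 (13.7%) and in 3 of 47 in replicate 2 (6.38%), against 16.7% and 15.2% of all promoter peaks. In all peaks of the members' windows it was found in 27.0% of 1834 and 30.5% of 614, against 30.6% and 33.4% of all peaks. The strongest distal peaks, chosen as described above, held it in 19 of 66 members in replicate 1 (28.8%) and 12 of 49 in replicate 2 (24.5%). The replicate 1 share lay between the 27.0% of window peaks and the 30.6% of all peaks. The replicate 2 share was below the 30.5% of window peaks and the 33.4% of all peaks. Among the 12 members in replicate 2 were Foxo3, Foxo1, Foxj1, Foxj3, Sox5 and Sox10.

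Motifs of the families' own factors were also counted. The forkhead forms were found in 1 of 73 promoter peaks in replicate 1 (1.37%) and 2 of 47 in replicate 2 (4.26%), against 2.92% and 2.58% of all promoter peaks. Over the windows they were found in 4.63% and 5.37% of peaks, against 4.38% and 4.02% of all peaks. The SOX forms were found in 2 of 73 promoter peaks in replicate 1 (2.74%) and 0 of 47 in replicate 2, against 2.02% and 1.38%, and the T-box form in none, against 0.426% and 0.302%. The SOX forms gave 2.62% and 1.95% over the windows, against 3.45% and 2.72%, and the T-box form 0.545% and 0.163%, against 0.593% and 0.476%. ETS, CACC box, CRE and YY1 forms were found in 0 of the member promoter peaks, where all promoter peaks gave between 0.686% (YY1) and 2.56% (ETS) in replicate 1 and between 1.10% and 4.48% in replicate 2. With 73 and 47 peaks, shares of that size correspond to few peaks. The E-box was found in 5 of 73 promoter peaks in replicate 1 (6.85%) and 5 of 47 in replicate 2 (10.6%), against 7.94% and 7.46%. All of these are counts of letters and do not show binding.

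Of 614 replicate 2 window peaks, 93.2% were overlapped by a replicate 1 peak, against 94.7% over all peaks, and of 1834 replicate 1 window peaks 31.2% were overlapped by a replicate 2 peak, against 30.2%. Introns held 55.1% and 52.9% of them in replicates 1 and 2, intergenic sequence 34.1% and 35.2% and exons 10.7% and 11.9%. Their median scores were 78 and 35, against 73 and 32 over all peaks.

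Paralogs lying together share part of these counts. The windows of 9 members overlapped in 6 pairs: Foxf1, Foxc2 and Foxl1 on chromosome 8, Foxd2 and Foxe3 on chromosome 4, Foxf2 and Foxq1 on chromosome 13, and Tbx2 and Tbx4 on chromosome 11. Foxc2 and Foxl1, 9.04 kb apart, shared 41 replicate 1 and 7 replicate 2 peaks, and of these Foxc2 had a promoter peak and Foxl1 had none. Foxd2 and Foxe3 shared 19 and 12. Without the 9 genes, 24 of 66 members (36.4%) had a promoter peak in replicate 1 and 20 (30.3%) in replicate 2.

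Hotspots, the wider regions of enriched cutting that the authors called, gave nearly the same members. A hotspot overlapped the promoter window of 28 members (37.3%) in replicate 1 and 23 (30.7%) in replicate 2. Hotspots added Foxd4 in replicate 1 and Foxh1 in replicate 2. Of all 21851 protein-coding genes, 12995 had such a hotspot in replicate 1 and 10934 in replicate 2. In each list this was a larger share than among the members. The widest promoter hotspots in replicate 1 spanned 5511 bp at Foxo3, 4501 bp at Foxn3 and 4445 bp at Sox12. In replicate 2 the same genes had 476, 375 and 523 bp, and the widest was at Tbx15 with 2167 bp, against 2926 bp in replicate 1.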

How the data were processed

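DNase-seq peak lists of MEL cells were analysed, 1 for each of 2 biological replicates. The replicate 1 list came from 2 merged libraries and the replicate 2 list from 1 library, per the deposited notes. Coordinates are those of mm10, the build in the labels. The aligner and the peak caller are not given in the sources used here, and the depth is unknown. Peak scores are the deposited score of the authors, whole numbers up to 150, which was also the largest peak width in bp. Hotspots carry a deposited −log10 q-value and served only as positions.

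Exact repeats were dropped (67 and 7 lines). Peak centres were compared with protein-coding transcript starts of GENCODE M21 basic: a promoter peak lay within 1000 bp of a start, and a window was the gene and 50 kb to either side. CpG number and unique 32-bp words came from the GRCm38 sequence. Python 3.11.15, numpy 2.4.6, pandas 2.3.3, pysam 0.24.0 and matplotlib 3.10.9 were used, and the code was tested on simulated data.

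The members (by a rule on names alone), role groups, gene lists and motifs were chosen with earlier results of these data known. Every member entered the counts, and 1 item is not reported here by name. Genes named were members with a promoter peak, the 5 windows with the most and the fewest replicate 2 peaks, the highest-scoring windows, and the highest-scoring and the missing genes of each list. Distal peaks, members with many window peaks but no promoter peak and the grouping of Forkhead groups were added after values were seen. No test was run, since each replicate gave 1 list and genes are not replicates. The fixed alternatives were other promoter and window widths, other starts, stricter or equal lists, hotspots, peaks nearest to a member, windows shared by no other member, and each replicate alone.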

Additional observations from a re-analysis of the deposited data

How the results depend on the processing

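Of 74 alternative values, 60 stayed within 1.5 times the main one and 14 moved further. Some could not move: equal list length left the shorter replicate 2 list as it was. Leaving out replicate 1 repeated the count in both lists, since every member called in replicate 2 was also called in replicate 1. Family counts are small, so a gain or loss of 1 gene can pass that limit. SOX genes with a promoter peak in replicate 1 numbered 5 within 2500 bp, and 1 within 500 bp, in the higher-scoring 50% and at equal list length, against 2. T-box genes in replicate 1 numbered 3 with the gene start only, within 500 bp and at equal length, against 5, and in replicate 2 they numbered 5 within 2500 bp and 1 in the higher-scoring 50%, against 3. Counts found in both lists ranged, with each replicate left out in turn, from 1 to 2 for SOX and from 3 to 5 for T-box genes. These are the counts of each list alone. The replicate 1 window median was 6 with 10 kb to either side and 10 at equal length, and in replicate 2 it was 1 with 10 kb. Over all genes the same settings gave 10, 9 and 3 in the same order. A narrower window or a shortened list cannot hold more peaks. Beyond this, the cause of the shifts was not tested. Over all members the count ran from 20 (within 500 bp) to 35 (within 2500 bp) in replicate 1 and from 16 (higher-scoring 50%) to 26 in replicate 2, below the share of all genes under each. Counting peaks nearest to a start of the member removed Foxa3 from both lists and Foxm1 from replicate 2, and the gene start alone removed Tbx15 from both and added Foxp3. No paired analysis was possible because each biological replicate gave 1 list of 1 condition. Unknown depth limits every statement that a peak is missing: a promoter without one may lie below the caller's limit.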
